A study of Homo sapiens with 26 samples.

Results

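The gene FIBP was knocked down in 786-O cells, a human line from a clear cell renal carcinoma in which loss of VHL leaves the transcription factor HIF-2 constantly present. The comparison comprised 6 of the 26 libraries of the series, taken by their labels: 2 libraries of cells given FIBP siRNA 6, 2 given FIBP siRNA 7 and 2 given a non-targeting control siRNA. All groups were unmodified cells of 1 line, kept in RPMI with serum, transfected with DharmaFECT 1, split after 24 h and harvested at 48 h. The same table also holds 4 libraries of cells given siRNA 5 or siRNA 6 against TMEM259, another gene of the series, with the same 2 control libraries. One title among the siRNA 6 samples spells the target FIPB, whereas its treatment label reads FIBP. No label says whether the 2 libraries of a group were transfected separately, and p-values therefore measure only the spread between these libraries, which may be technical.

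FIBP encodes an intracellular protein that binds acidic fibroblast growth factor, FGF1, after the growth factor has entered the cell, and the series places it among nuclear speckle proteins. At the cell surface, FGF receptors act through FRS2, GRB2 and SOS1 on RAS and the kinase ERK, and ERK induces its own inhibitors, among them dual-specificity phosphatases (DUSP genes) and Sprouty proteins. Inherited loss of FIBP has been linked to an overgrowth syndrome, and in T cells its loss has been linked to lowered cholesterol metabolism. The gene lists below follow these roles and the biology of renal carcinoma cells.

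The 6 libraries held 8966609 to 13191916 reads assigned to genes, the shallowest being siRNA 7 replicate 1. Values are normalized counts, that is, the authors' reads per gene divided by 1 size factor per library. Of 12140 genes, the 11768 with a mean of at least 10 over the table were tested. Of 11 renal carcinoma markers 10 were measured, among them PAX8, PAX2 and CDH6, with a summed level of 95456 to 101034 in FIBP siRNA libraries and 106713 to 107959 in control libraries. That sum does not overlap between the groups and is mostly vimentin (VIM), which fell by 0.17 and 0.12 on the log2 scale with siRNA 6 and siRNA 7. Among markers of other cells, 1 of 7 for leukocytes was measured, the lysosomal CD68, at 242 and 214 with siRNA 6 and 244 and 259 with siRNA 7, against 169.5 and 196 in control cells. CD68 rose by 0.32 and 0.46, a call lost with DESeq2, without control replicate 1 and without siRNA 6 replicate 1, and its part in the results below was not tested. PTPRC, CD3E, CD14, LYZ, CD79A and HLA-DRA were not among the genes analysed here. None of the 6 endothelial markers was among them, and 3 of 7 fibroblast markers were (COL1A1, LUM and PDGFRB). Those 3 summed to 89.8 and 116 with siRNA 6 and 66.1 and 40.6 with siRNA 7, against 93.2 and 109 in control libraries, so that both siRNA 7 libraries lay below both control libraries. COL1A1 and PDGFRB were called lower with siRNA 7, at fold changes of -1.04 and -1.29, and none of the 3 was called with siRNA 6.

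FIBP mRNA itself was low in every library given either siRNA. It stood at 51.6 and 66.7 with siRNA 6 and 103 and 81.2 with siRNA 7, against 539 and 541 in control cells. That left 11.0% of the control mean with siRNA 6 and 17.1% with siRNA 7. On the log2 scale FIBP fell by 3.18 with siRNA 6 (SE 0.11, adjusted p = 6.8e-26) and fell by 2.55 with siRNA 7 (SE 0.11, adjusted p = 1.4e-22) in limma's test adjusted over all 11768 genes, and by less with siRNA 7 than with siRNA 6 (difference 0.63, SE 0.11, adjusted p = 1.6e-05). FIBP also stood lower with TMEM259 siRNA 6, at a log2 fold change of -0.48 over control (adjusted p = 0.0018), and at -0.01 with TMEM259 siRNA 5 (adjusted p = 0.97). The end of FIBP on chromosome 11 overlaps the cathepsin W gene CTSW on the opposite strand, and the strand counted is not stated. CTSW was barely expressed, at 18.1 and 18.1 with siRNA 6 and 19.3 and 15.2 with siRNA 7, against 17.0 and 12.3 in control cells, and was not called with either siRNA. Of 16 other tested genes beside FIBP, 2 rose with both siRNAs (12.5%, against 4.68% of all genes) and 1 fell (6.25%, against 4.39%). SIPA1 rose by 0.38 and 0.43 and the AP-1 subunit FOSL1 by 0.19 and 0.22, and the actin-severing CFL1 fell by 0.09 and 0.08. The CFL1 call was lost with quantile normalization, with DESeq2, with a replicate block and without any 1 of the 6 libraries, and that of SIPA1 without control replicate 1.

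**Figure D1:**
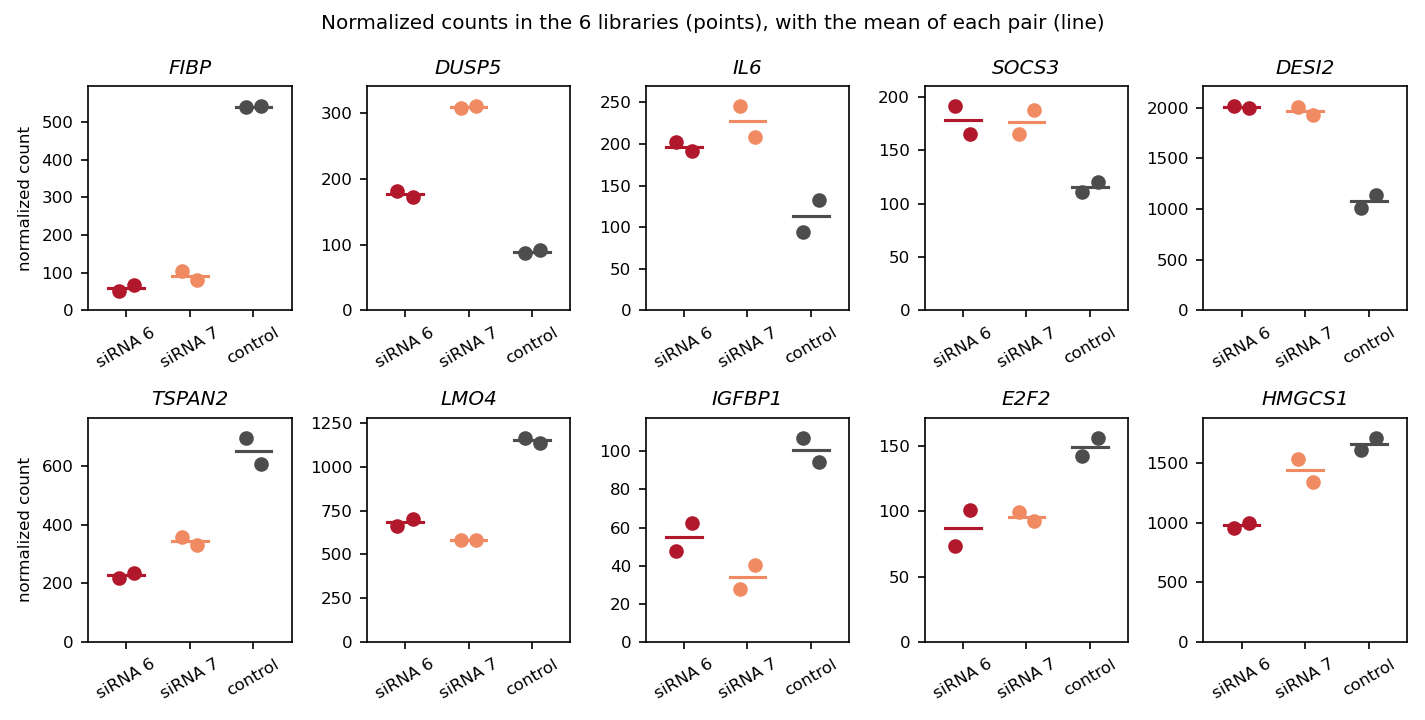
Normalized counts of 10 genes (one panel each, vertical axis from 0) in the 2 libraries of FIBP siRNA 6, FIBP siRNA 7 and control siRNA, with points for libraries and a line at the mean of each pair. FIBP is at 103 or less in all 4 FIBP siRNA libraries and at 539 and 541 in control libraries, and each of the other 9 genes has all 4 FIBP siRNA libraries on 1 side of both control libraries.

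Across the transcriptome the siRNAs shared many small changes and few large ones. siRNA 6 called 2660 genes (22.6% of those tested; 1269 higher and 1391 lower) and siRNA 7 called 4009 (34.1%; 1954 higher and 2055 lower). With the mean of both siRNAs 3231 genes were called (27.5%; 1533 higher and 1698 lower). Both siRNAs called 1068 genes with the same sign (9.08% of genes tested), of which 551 rose (4.68%) and 517 fell (4.39%). Their median change for the mean of both siRNAs was 1.24-fold. With each siRNA 9 of them passed 2-fold, 6 higher and 3 lower, FIBP among the lower. All 4 FIBP siRNA libraries lay above both control libraries for 1778 genes (15.1%) and below both for 1707 (14.5%). The siRNAs called a further 294 genes (2.5%) with opposite signs. Because both siRNAs were set against the same 2 control libraries, a deviation in a control library enters both contrasts. Without control replicate 1, 677 genes were called with both siRNAs and 1950 by the mean, without control replicate 2, 711 and 1953. siRNA 6 called 1730 genes without control replicate 1 and 1669 without siRNA 6 replicate 1. DESeq2 called 596 genes with both siRNAs.

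**Figure D2:**
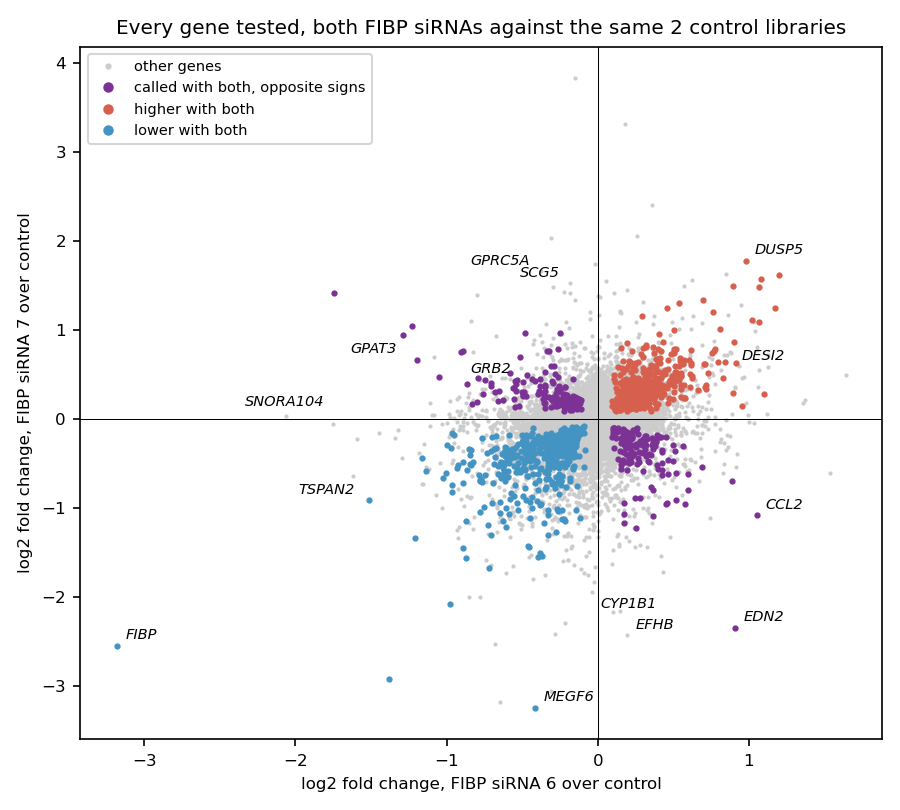
Each point is 1 of 11768 genes, with its log2 fold change over control for FIBP siRNA 6 (horizontal) and FIBP siRNA 7 (vertical). Genes called with both siRNAs are red where higher (551) and blue where lower (517), those called with opposite signs (294) are purple, and FIBP is the leftmost point. The vertical spread reaches further than the horizontal one.

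Among genes with a table mean of at least 50, the 14 that rose most with both siRNAs included 2 signalling inhibitors, DUSP5 and SOCS3, and the cytokine IL6. GDF15, given below, lay under that mean and was left out, although its smaller change exceeded that of all 14. DUSP5, a nuclear phosphatase that inactivates ERK, led the list at 181 and 173 with siRNA 6 and 309 and 311 with siRNA 7, against 86.9 and 91.7 in control cells. It rose by 0.98 with siRNA 6 (SE 0.13, adjusted p = 1.5e-07) and by 1.78 with siRNA 7 (SE 0.13, adjusted p = 6.7e-15), and every FIBP siRNA library lay above both control libraries, with siRNA 7 the higher. Interleukin 6 (IL6) stood at 202 and 191 with siRNA 6 and 245 and 209 with siRNA 7, against 94.3 and 132 in control cells, rising by 0.81 with siRNA 6 (SE 0.14, adjusted p = 9.8e-06) and by 1.01 with siRNA 7 (SE 0.14, adjusted p = 6.7e-08). SOCS3, an inhibitor of JAK-STAT signalling that cytokines of the IL6 family induce, stood at 191 and 165 with siRNA 6 and 165 and 188 with siRNA 7, against 111 and 120.1 in control cells. It rose by 0.62 with siRNA 6 (SE 0.13, adjusted p = 4.3e-04) and by 0.60 with siRNA 7 (SE 0.13, adjusted p = 3.2e-04), and its groups do not overlap. ULBP3, a ligand of the NKG2D receptor of natural killer cells, rose by 0.71 and 0.62, and G0S2, an inhibitor of the triglyceride lipase ATGL, rose by 0.62 and 0.64.

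Further genes among the 14 with the largest shared rise act in the matrix, in protein modification and in mitochondria. DESI2, a peptidase of the desumoylating DESI family, was at 2012 and 1996 with siRNA 6 and 2004 and 1924 with siRNA 7, against 1014 and 1136 in control cells, and rose by 0.90 with siRNA 6 (SE 0.05, adjusted p = 4.1e-18) and by 0.87 with siRNA 7 (SE 0.05, adjusted p = 5.5e-18). The metalloprotease ADAMTS1 was at 3609 and 3616 with siRNA 6 and 4106 and 3987 with siRNA 7, against 2308 and 2412 in control cells, and rose by 0.61 and 0.78. The N-terminal acetyltransferase NAA50 was at 4694 and 4649 with siRNA 6 and 4957 and 5013 with siRNA 7, against 3126 and 3160.2 in control cells, and rose by 0.57 and 0.67. In all 3, the 4 FIBP siRNA libraries lay above both control libraries. The others were LTBP2, an extracellular matrix protein of the latent TGF-beta binding family (0.70 and 1.34), the sialyltransferase ST3GAL1 (0.70 and 0.61), the inositol phosphatase INPP5A (0.84 and 0.64), the mitochondrial ribosomal protein MRPL50 (0.60 and 0.66), the autophagy-linked TECPR2 (0.78 and 0.79) and the small membrane protein gene SMIM15 (0.76 and 0.74). The smaller change of the pair was 0.57 for NAA50, the last gene taken, and 0.57 for DPY19L3, the next.

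Transcription regulators and secreted factors were among the 14 genes that fell most with both siRNAs, again of those with a table mean of at least 50. TSPAN2, a tetraspanin membrane protein, stood at 219 and 236 with siRNA 6 and 358 and 333 with siRNA 7, against 697 and 607 in control cells. It fell by 1.51 with siRNA 6 (SE 0.08, adjusted p = 4.0e-19) and fell by 0.91 with siRNA 7 (SE 0.08, adjusted p = 2.1e-12), siRNA 6 giving the lower level. LMO4, a LIM-domain transcription cofactor, stood at 664 and 703 with siRNA 6 and 580.1 and 585 with siRNA 7, against 1166 and 1136 in control cells, and fell by 0.75 with siRNA 6 (SE 0.06, adjusted p = 6.6e-14) and fell by 0.98 with siRNA 7 (SE 0.06, adjusted p = 4.7e-18). The insulin-like growth factor binding protein IGFBP1 stood at 47.7 and 62.2 with siRNA 6 and 27.6 and 40.6 with siRNA 7, against 107 and 94.5 in control cells, and fell by 0.87 with siRNA 6 (SE 0.20, adjusted p = 6.7e-04) and fell by 1.56 with siRNA 7 (SE 0.20, adjusted p = 1.4e-08). For each of these 3 genes both control libraries lay above all 4 FIBP siRNA libraries.

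The BCL2-family gene BCL2L15 fell by 0.89 and 1.45 and the BCOR-related corepressor gene BCORL1 by 0.72 and 1.19. ARTN, a neurotrophic ligand of the RET receptor system, fell by 0.70 and 0.94, the kinase MAP3K21 by 0.76 and 0.71 and MVB12B, a subunit of the endosomal sorting complex ESCRT-I, by 0.69 and 0.72. Low-level genes in this group, besides IGFBP1 and BCORL1, were the troponin TNNT1 (-0.77 and -0.67), the junction protein PLEKHA7 (-0.64 and -0.66) and the ion channel HCN3 (-0.75 and -0.63). The long noncoding RNA DGCR5 (-0.65 and -0.93) overlaps DGCR9 on the same strand. ANKRD36C (-0.78 and -0.68) belongs to a family of near-identical copies, so its value is uncertain. The smaller change was 0.63 for HCN3, the last gene taken, and 0.63 for E2F2, the next. Of all 28 genes, 19 kept both calls under every one of 18 alternatives, while LTBP2, ULBP3, IGFBP1, BCORL1, ANKRD36C, TNNT1, PLEKHA7 and HCN3 were among those that lost one with DESeq2, and all of these 8 but IGFBP1 also lost one without 1 or more single libraries. IL6, SMIM15, TECPR2, INPP5A, LTBP2, PLEKHA7 and HCN3 overlap other annotated genes, mostly on the opposite strand. Because the strand counted is not given, reads of these pairs may not be separated where they overlap.

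**Figure D3:**
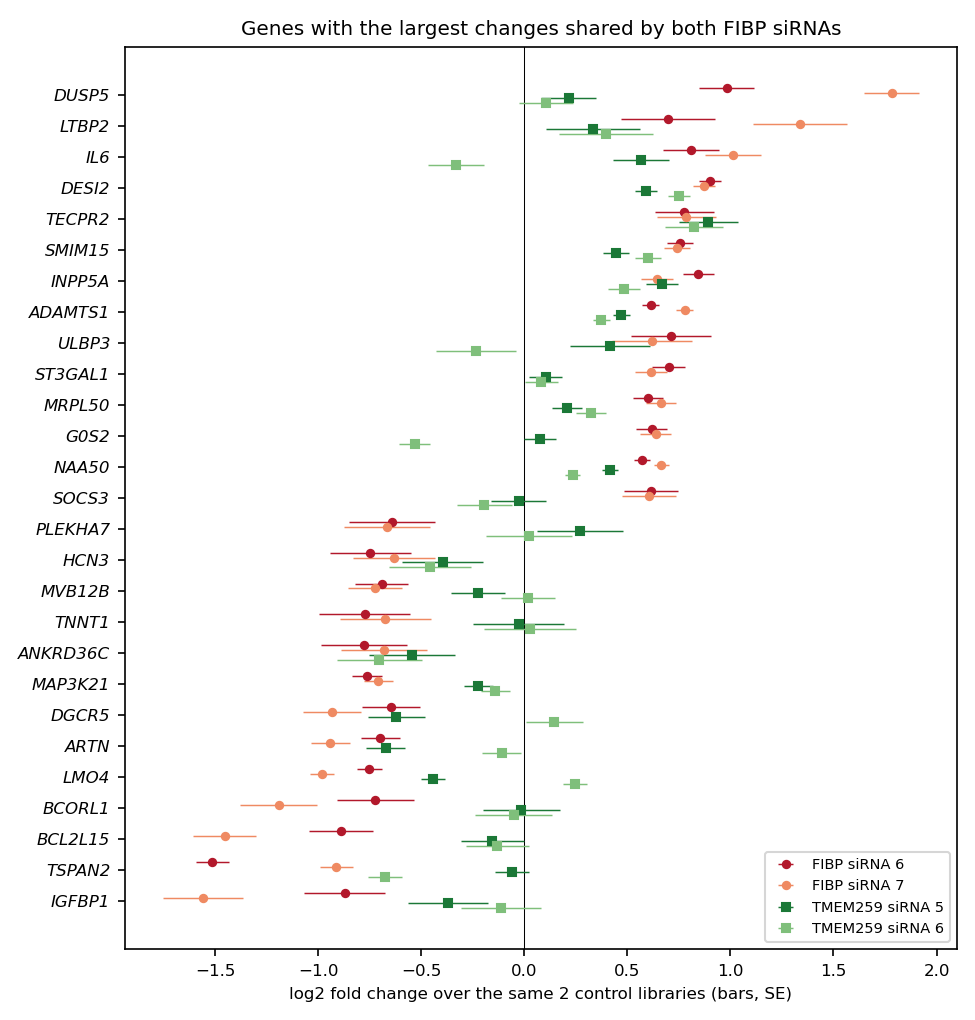
log2 fold change over the same 2 control libraries (horizontal, bars show the SE), with TMEM259 siRNAs 5 and 6 as squares. Shown are 27 of the 28 genes that rose or fell most with both FIBP siRNAs among those with a table mean of at least 50. DUSP5, G0S2, SOCS3 and ST3GAL1 separate from the squares, while TECPR2 lies among them.

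FGF pathway genes were called higher with both siRNAs at about the share of all genes. Among 22 tested ligands, receptors and co-factors, 1 rose with both (4.55%, against 4.68% of all genes) and 0 fell (1 without siRNA 7 replicate 1). The median change of the mean of both siRNAs was -0.11, against -0.01 over all genes. siRNA 6 called 5 members (beside 22.6% of all genes), 1 higher and 4 lower, and siRNA 7 called 11 (beside 34.1%), 5 higher and 6 lower. The mean called 10 (beside 27.5%), 3 higher and 7 lower, and 15 differed between the siRNAs (beside 35.7%). The member that rose was the heparan sulfate proteoglycan GPC1, at 1334 and 1304 with siRNA 6 and 1239 and 1148 with siRNA 7, against 1070.2 and 1059.7 in control cells, by 0.31 and 0.16. Its call was lost with DESeq2 and without either control replicate or siRNA 7 replicate 1. FGF1, the ligand that FIBP binds, was barely expressed, at 9.55 and 9.05 with siRNA 6 and 11.0 and 9.13 with siRNA 7, against 8.48 and 3.78 in control cells, and was not called. The receptor FGFR1, at 1422 and 1453 with siRNA 6 and 1461 and 1491 with siRNA 7, against 1381 and 1325 in control cells, was not called with either siRNA.

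Several pathway members differed between the siRNAs, in size or in direction. FGFR2 was at 209 and 187 with siRNA 6 and 77.2 and 75.1 with siRNA 7, against 211 and 254 in control cells, so that siRNA 7 alone lay apart from control. Its fold change was -0.23 with siRNA 6 (adjusted p = 0.17) and -1.59 with siRNA 7 (adjusted p = 7.1e-15), and the siRNAs differed by -1.36 (SE 0.12, adjusted p = 5.9e-13). The ligand FGF5 was at 158 and 140.2 with siRNA 6 and 373 and 363 with siRNA 7, against 169.5 and 174 in control cells, and the siRNAs differed by 1.30 (adjusted p = 3.9e-13). The adaptor GRB2 was at 1105 and 1230.2 with siRNA 6 and 2434 and 2509.9 with siRNA 7, against 1896 and 1907 in control cells, below control with siRNA 6 and above it with siRNA 7. It fell by 0.71 with siRNA 6 and rose by 0.38 with siRNA 7 (difference 1.08, adjusted p = 6.1e-23).

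Genes that ERK induces or that restrain it were called higher mostly with siRNA 7. Of 21 tested, 5 rose with both siRNAs (23.8%, against 4.68% of all genes) and 1 fell (4.76%, against 4.39%). The median change was 0.04 with siRNA 6, 0.40 with siRNA 7 and 0.21 for their mean. Besides DUSP5, these were the receptor kinase inhibitors SPRY2, at 100.3 and 111 with siRNA 6 and 124 and 163 with siRNA 7, against 76.3 and 79.4 in control cells, and SPRED2, at 413 and 349 with siRNA 6 and 405 and 407 with siRNA 7, against 298 and 254 in control cells, the adaptor SH2B3 and FOSL1. SPRY2 rose by 0.43 and 0.86, SPRED2 by 0.46 and 0.56 and SH2B3 by 0.31 and 0.34. The SPRY2 call was lost with DESeq2 and without any 1 control or siRNA 6 library. The member that fell was the cyclin CCND1, an ERK-induced driver of G1, by 0.37 and 0.21. Others rose with siRNA 7 only at the threshold used: PHLDA1 by 1.38 against 0.02 with siRNA 6, the transcription factor ETV5 by 1.32 against 0.30, and the ERK phosphatase DUSP6 by 1.21 against 0.15. Over the list, siRNA 7 called 17 members (beside 34.1% of all genes), 15 higher and 2 lower, and siRNA 6 called 9 (beside 22.6% of all genes), 5 higher and 4 lower. The siRNAs differed by 1.36 for PHLDA1 (adjusted p = 2.7e-18), by 1.02 for ETV5 (adjusted p = 1.4e-08) and by 1.06 for DUSP6 (adjusted p = 7.4e-04).

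**Figure D4:**
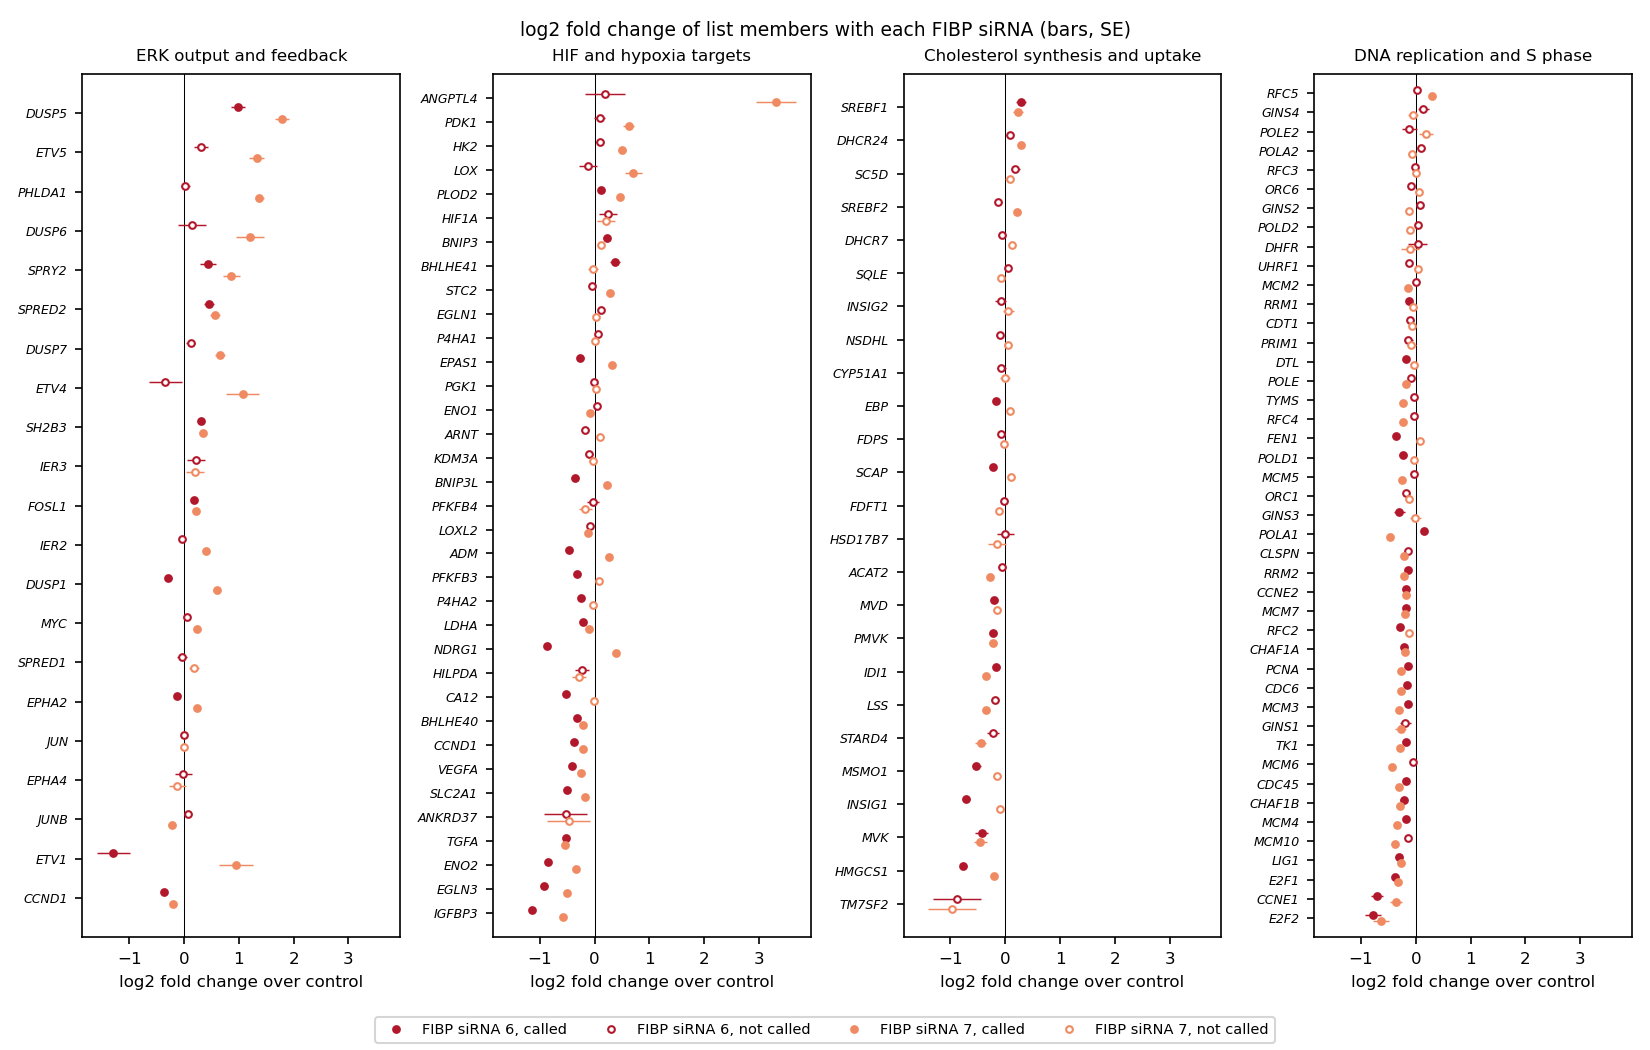
log2 fold change over control (horizontal, bars show the SE) for tested members of 4 gene lists, with dark points for FIBP siRNA 6, light points for FIBP siRNA 7, filled where called and open where not. Most replication genes lie slightly left of 0 with both siRNAs, while ERK genes lie right of 0 mainly with siRNA 7 and hypoxia targets left of 0 mainly with siRNA 6.

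A share of the DNA replication genes fell with both siRNAs. Of 44 tested, 15 did (34.1%, against 4.39% of all genes) and 0 rose, with a median mean change of -0.15. siRNA 6 called 21 lower and 1 higher, and siRNA 7 25 lower and 1 higher. Over all genes siRNA 6 called 22.6% and siRNA 7 34.1%, in either direction. Those that fell with both comprised the transcription factors E2F1 and E2F2 that drive S phase, the cyclins CCNE1 and CCNE2, the helicase components MCM3, MCM4, MCM7 and CDC45, the loading factor CDC6, the sliding clamp PCNA, the ligase LIG1, the nucleotide enzymes RRM2 and TK1, and the chromatin assembly subunits CHAF1A and CHAF1B. E2F2 was at 73.5 and 101 with siRNA 6 and 99.2 and 92.4 with siRNA 7, against 142 and 156 in control cells. It fell by 0.78 with siRNA 6 (SE 0.15, adjusted p = 6.2e-05) and fell by 0.63 with siRNA 7 (SE 0.15, adjusted p = 6.4e-04). E2F1 was at 958 and 1023 with siRNA 6 and 1042 and 1013 with siRNA 7, against 1298 and 1288 in control cells, and fell by 0.39 and 0.33. MCM4 was at 5891 and 5798 with siRNA 6 and 5225 and 5229 with siRNA 7, against 6658 and 6558 in control cells, and fell by 0.18 and 0.34, and in all 3 genes the groups do not overlap. Without siRNA 6 replicate 1, 9 members fell with both siRNAs. In bulk RNA, fewer cells in a phase of the cell cycle and less RNA per cell cannot be told apart.

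Mitosis genes followed in the same direction. Of 40 tested, 8 fell with both siRNAs (20.0%, against 4.39% of all genes) and 0 rose, with a median mean change of -0.16. Without control replicate 1, 5 fell. KIF23, a kinesin of the central spindle needed for cytokinesis, was at 1361 and 1428 with siRNA 6 and 1660.5 and 1509 with siRNA 7, against 2286 and 2210.1 in control cells. It fell by 0.69 with siRNA 6 (SE 0.05, adjusted p = 2.3e-15) and fell by 0.51 with siRNA 7 (SE 0.05, adjusted p = 1.4e-11). The kinase CDK1, which drives entry into mitosis, was at 3262 and 3043 with siRNA 6 and 2536 and 2585 with siRNA 7, against 3535 and 3719 in control cells, and fell by 0.20 and 0.50. The spindle protein CKAP2 fell by 0.19 and 0.39, the separase inhibitor PTTG1 by 0.26 and 0.21, the kinesin KIF2C by 0.27 and 0.18 and the kinetochore protein NUF2 by 0.22 and 0.19, the last a call lost without control replicate 1 and without siRNA 7 replicate 2.

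E2F factors bind short elements rich in G and C near the start sites of replication genes, and the windows below show such elements for 5 members that fell with both siRNAs. Promoters of 250 bases before to 50 after the start were taken from RefSeq (GRCh38.p14) and searched on both strands for TTTCCCGC, TTTCGCGC, TTTGCCGC and TTTGGCGC. Each 30-base window is given 5′ to 3′ on the strand of its gene, all 5 genes lying on the minus strand, with the element in capitals.
E2F1, chr20:33686387-33686416: ggcaaaaaggaTTTGGCGCgtaaaagtggc
E2F2, chr1:23531257-23531286: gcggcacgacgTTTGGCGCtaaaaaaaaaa
LIG1, chr19:48170440-48170469: acttcacccctTTTCCCGCcctcctcccat
MCM3, chr6:52284898-52284927: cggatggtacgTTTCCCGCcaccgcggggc
PCNA, chr20:5126663-5126692: cagcgtcagggGCGGGAAAaggcgtgcgtt
In the PCNA window the element lies on the strand opposite to the gene. An element was found in 22 of 39 promoters of the replication list (56.4%), against 5.62% of the genes tested that had a promoter sequence and 3.33% of all 27305 promoters. It was in 7 of 13 promoters of members that fell with both siRNAs (53.8%) and in 15 of 26 of the other members (57.7%). Over all genes, 6.40% of those that fell with both siRNAs held it and 2.42% of those that rose. These matches describe letters in the reference and no binding was measured.

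Cholesterol synthesis genes fell in part. Of 27 tested, 5 fell with both siRNAs (18.5%, against 4.39% of all genes) and 1 rose (3.70%, against 4.68%), with a median mean change of -0.06. Among them were HMGCS1, MVK, PMVK and IDI1 of the mevalonate pathway. HMGCS1 was at 958 and 1002 with siRNA 6 and 1539 and 1343 with siRNA 7, against 1614 and 1713 in control cells. It fell by 0.76 with siRNA 6 (SE 0.06, adjusted p = 1.5e-14) and fell by 0.21 with siRNA 7 (SE 0.06, adjusted p = 0.0034), and siRNA 6 gave the lower level. MVK fell by 0.43 and 0.45, PMVK by 0.23 and 0.22 and IDI1 by 0.17 and 0.34. The member that rose was SREBF1, the transcription factor of lipid synthesis genes, by 0.29 and 0.24, a call lost with DESeq2, with edgeR and without any 1 of the 6 libraries except siRNA 6 replicate 2.

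Other members of the list differed between the siRNAs or did not pass the test. INSIG1, which retains SREBP in the endoplasmic reticulum, was at 647 and 789 with siRNA 6 and 1174 and 1038 with siRNA 7, against 1108 and 1243 in control cells, apart from control with siRNA 6 only, and the siRNAs differed by 0.63 (adjusted p = 2.5e-09). The sterol oxidase MSMO1 was at 465 and 489.6 with siRNA 6 and 612 and 622 with siRNA 7, against 645 and 733 in control cells, with fold changes of -0.53 and -0.16. SREBF2, the main activator of the pathway, had -0.12 and 0.22, the second called and the first not. SQLE, FDFT1, CYP51A1 and DHCR7 passed the test with neither siRNA. With DESeq2, and likewise without control replicate 2, 1 member fell with both siRNAs, and 3 did without either siRNA 6 replicate or without siRNA 7 replicate 1. HMGCS1 lost its call without control replicate 2 and without siRNA 7 replicate 2, and MVK, PMVK and IDI1 each lost theirs with DESeq2 and without 3 or more single libraries. Against TMEM259 knockdown, 15 of the 27 stood lower with FIBP siRNAs and 0 higher, against 18.8% lower and 18.3% higher over all genes.

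Targets of hypoxia-inducible factors, of which HIF-2 is constantly present in 786-O cells, were lower in part. Of 36 tested, 9 fell with both siRNAs (25.0%, against 4.39% of all genes) and 2 rose (5.56%, against 4.68%), with a median mean change of -0.08. The count that fell was 8 or 9 in all 18 alternatives. The count that rose was 0 with DESeq2 and without control replicate 1, and 1 without control replicate 2, without siRNA 6 replicate 1 and without siRNA 7 replicate 1. IGFBP3, which binds insulin-like growth factors, was at 4814 and 5441 with siRNA 6 and 8189 and 6902 with siRNA 7, against 10826 and 11692 in control cells. It fell by 1.14 with siRNA 6 (SE 0.05, adjusted p = 7.4e-23) and fell by 0.58 with siRNA 7 (SE 0.05, adjusted p = 2.4e-13), and siRNA 6 gave the lower level. The hydroxylase EGLN3, which marks HIF for degradation where VHL is intact, was at 494 and 587 with siRNA 6 and 739 and 692 with siRNA 7, against 1027 and 1015 in control cells, and fell by 0.92 and 0.51. The enolase ENO2 was at 645 and 641 with siRNA 6 and 905 and 939.8 with siRNA 7, against 1198 and 1129 in control cells, and fell by 0.85 and 0.33. In each, the control libraries lay above every FIBP siRNA library.

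TGFA, an EGF receptor ligand that supports growth of these cells, was at 2005 and 2038 with siRNA 6 and 2126 and 1881 with siRNA 7, against 3041 and 2805 in control cells, and fell by 0.53 and 0.55 (difference between the siRNAs -0.02, SE 0.05, adjusted p = 0.85). The glucose transporter SLC2A1 fell by 0.50 and 0.18, the angiogenic factor VEGFA by 0.42 and 0.25, the lactate dehydrogenase LDHA by 0.22 and 0.10 and the repressor BHLHE40 by 0.32 and 0.22. PLOD2, a collagen hydroxylase, was among those that rose (0.11 and 0.45). ANGPTL4 stood at 10.5 and 11.3 with siRNA 6 and 88.2 and 122 with siRNA 7, against 10.6 and 8.51 in control cells, with fold changes of 0.18 and 3.32, and its siRNAs differed by 3.14 (adjusted p = 1.7e-09). EPAS1, which encodes HIF-2 alpha, changed in opposite directions, by -0.26 with siRNA 6 (adjusted p = 7.2e-04) and by 0.31 with siRNA 7 (adjusted p = 4.6e-05). Of the 36, siRNA 6 called 20 (beside 22.6% of all genes), of which 16 were lower and 4 higher. siRNA 7 called 22 (beside 34.1% of all genes), 11 in each direction. Of 17 glycolysis genes, 3 fell with both, ENO2, PFKP and LDHA (17.6%, against 4.39% of all genes). The 1 that rose (5.88%, against 4.68%) was the isomerase GPI, by 0.19 and 0.23.

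NF-kB targets and cytokines were higher with siRNA 6 in nearly the whole list and with siRNA 7 in part of it. Of 22 tested, 5 rose with both siRNAs (22.7%, against 4.68% of all genes) and 0 fell, with a median mean change of 0.20. Those that rose were IL6, LIF, CXCL3, ICAM1 and NFKB1. siRNA 6 called 21 of the 22 (beside 22.6% of all genes), 20 of them higher and 1 lower. siRNA 7 called 13 (beside 34.1% of all genes), 6 higher and 7 lower. Between the siRNAs 18 differed, 16 of them lower with siRNA 7 than with siRNA 6 and 2 higher, against 35.7% of all genes. The adhesion receptor ICAM1 was at 2999 and 2835 with siRNA 6 and 1746 and 1590.4 with siRNA 7, against 1434 and 1578 in control cells, well above control with siRNA 6 and just above it with siRNA 7. It rose by 0.95 with siRNA 6 (SE 0.05, adjusted p = 4.7e-19) and by 0.15 with siRNA 7 (SE 0.05, adjusted p = 0.024), and the siRNAs differed by -0.81 (adjusted p = 4.2e-17). The IL6-family cytokine LIF was at 2757 and 2688 with siRNA 6 and 2745 and 2565 with siRNA 7, against 2388 and 2423 in control cells, rising by 0.18 and 0.14, and the low-level chemokine CXCL3 rose by 1.02 and 1.11, a call lost with DESeq2 and without 3 single libraries. Without control replicate 1, and likewise without siRNA 7 replicate 1, 1 member was called with both siRNAs, and with DESeq2 2 were.

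Genes of the cell surface and matrix included laminins, integrins and proteases that rose and contractile genes that fell. Of 21 proteases and inhibitors, 8 rose with both siRNAs (38.1%, against 4.68% of all genes) and 0 fell, with a median mean change of 0.26. Among them were ADAMTS1, ADAMTS5, ADAMTS6, ADAM17, ADAM19, TIMP1 and PLAUR. The urokinase receptor PLAUR was at 883 and 850.3 with siRNA 6 and 1291 and 1466 with siRNA 7, against 788 and 731 in control cells, rising by 0.19 with siRNA 6 (SE 0.06, adjusted p = 0.020) and by 0.86 with siRNA 7 (SE 0.06, adjusted p = 2.4e-15). ADAMTS6 was at 201 and 211 with siRNA 6 and 262 and 272 with siRNA 7, against 148 and 171 in control cells, rising by 0.37 and 0.74, and for both genes siRNA 7 lay above siRNA 6. Both calls were lost with DESeq2 and without 2 single libraries each, control replicate 2 and siRNA 6 replicate 1 for PLAUR, and control replicate 1 and siRNA 6 replicate 2 for ADAMTS6. With DESeq2, 3 of the 21 rose with both siRNAs, and without control replicate 1, 5 did.

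Of 32 matrix genes 4 rose with both siRNAs (12.5%, against 4.68% of all genes), among them laminin chains of basement membranes, and 2 fell (6.25%, against 4.39%). The siRNAs called them with opposite balance: siRNA 6 called 9 higher and 4 lower, and siRNA 7 called 6 higher and 17 lower. In either direction, siRNA 6 called 22.6% of all genes and siRNA 7 34.1%. The median change of the list was 0.07 with siRNA 6, -0.19 with siRNA 7 and -0.06 for their mean. LAMC1 was at 8739.5 and 8692 with siRNA 6 and 7911 and 7325 with siRNA 7, against 5941 and 6357 in control cells, rising by 0.50 with siRNA 6 (SE 0.04, adjusted p = 3.8e-14) and by 0.31 with siRNA 7 (SE 0.04, adjusted p = 1.5e-08). LAMB3 rose by 0.22 and 0.27 and LAMB1 by 0.18 and 0.28, and the count of matrix genes that rose was 4 in all 18 alternatives. TGFBI fell by 0.32 and 0.33 and thrombospondin 1 (THBS1) by 0.33 and 0.19, the second call lost without siRNA 7 replicate 2. Of 19 integrin and adhesion genes 5 rose (26.3%, against 4.68% of all genes), ITGA3, ITGA5, ITGA6, CDH2 and ICAM1, and ITGB3 fell by 0.40 and 0.22. ITGA5, the fibronectin receptor chain, was at 2565 and 2431 with siRNA 6 and 2607 and 2765 with siRNA 7, against 2044 and 1953 in control cells, rising by 0.32 and 0.43. Without control replicate 1, 2 adhesion genes rose with both siRNAs, and 3 did with DESeq2, without control replicate 2 and without siRNA 7 replicate 1. ITGB1, the shared beta chain, fell with siRNA 6 alone, by 1.75, and had -0.05 with siRNA 7 (difference 1.70, adjusted p = 1.5e-33).

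Of 24 contractile and SRF target genes, 5 fell with both siRNAs (20.8%, against 4.39% of all genes) and 0 rose. FHL2, a LIM-domain cofactor, was at 2830.4 and 3096 with siRNA 6 and 2352 and 2273 with siRNA 7, against 3619.5 and 3775 in control cells, and fell by 0.32 and 0.68, and the myosin light chain kinase MYLK was at 775 and 706 with siRNA 6 and 776 and 782 with siRNA 7, against 1095 and 1009 in control cells, and fell by 0.51 and 0.43. Tropomyosin TPM1 fell by 0.09 and 0.54 and filamin FLNA by 0.08 and 0.34, both mainly with siRNA 7. With DESeq2, and without control replicate 2 or either siRNA 6 replicate, 3 fell with both, TPM1 and FLNA losing their calls. In the TGF-beta list, 5 of 23 fell (21.7%, against 4.39% of all genes) and 4 rose (17.4%, against 4.68%). Among those that fell were LTBP1 (-0.72 and -1.67), the pseudoreceptor BAMBI (-0.45 and -0.93) and ID2 (-0.24 and -0.69). With DESeq2 3 fell and 1 rose, and without control replicate 1 likewise 3 and 1. Without control replicate 2, 3 fell and 2 rose, without siRNA 6 replicate 1, 3 fell, and without siRNA 7 replicate 1, 1 rose. LTBP1 and ID2 were among the calls lost. In the Wnt list 2 of 23 fell with both siRNAs (8.70%, against 4.39% of all genes) and 1 rose (4.35%, against 4.68%). With DESeq2, without either control replicate and without siRNA 7 replicate 1, 1 fell. Among those that fell, DKK3 was at 225 and 249.9 with siRNA 6 and 307 and 319.7 with siRNA 7, against 473 and 479 in control cells, and fell by 1.00 and 0.60. Among 14 kidney lineage genes 3 fell with both siRNAs (21.4%, against 4.39% of all genes), CD24 by 0.22 and 1.13, KRT19 by 0.58 and 0.49, and VIM. CD24 lost its call with DESeq2, without control replicate 2 and without siRNA 6 replicate 1, and VIM with quantile normalization. The member that rose (7.14%, against 4.68%) was the renal transcription factor PAX2, by 0.41 and 0.40. The PAX2 call was lost with DESeq2, without control replicate 2 and without any 1 of the 4 FIBP siRNA libraries.

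Ribosomal protein mRNAs and nucleolar factors moved in opposite directions. Of 70 cytosolic ribosomal protein genes, 12 fell with both siRNAs (17.1%, against 4.39% of all genes) and 0 rose, with a median mean change of -0.07. RPL3 was at 18386 and 19034 with siRNA 6 and 18056 and 18079.7 with siRNA 7, against 20782 and 20685 in control cells, and fell by 0.15 and 0.20. Without control replicate 2, 3 fell, with quantile normalization 5, 6 fell without siRNA 7 replicate 1, and 7 fell with DESeq2 and without control replicate 1. Of 36 nucleolar genes of ribosome assembly, 8 rose with both (22.2%, against 4.68% of all genes) and 0 fell, with a median mean change of 0.10. Those that rose were HEATR1, NAT10, RRP12, NOP2, GAR1, NOP14, DKC1 and DDX21. HEATR1, a factor of rRNA transcription and processing, was at 3383 and 3376 with siRNA 6 and 3399.5 and 3462 with siRNA 7, against 2356 and 2379 in control cells, with no overlap. It rose by 0.51 with siRNA 6 (SE 0.04, adjusted p = 1.0e-13) and by 0.53 with siRNA 7 (SE 0.04, adjusted p = 1.5e-14). NAT10, an RNA acetyltransferase, rose by 0.22 and 0.38, a call lost without siRNA 6 replicate 1. Without siRNA 6 replicate 1, 3 nucleolar genes rose with both siRNAs, and without control replicate 2, 5 did.

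Stress programmes changed in single genes. Of 23 p53 targets 4 rose with both siRNAs (17.4%, against 4.68% of all genes) and 1 fell (4.35%, against 4.39%). The stress cytokine GDF15 was at 29.6 and 31.7 with siRNA 6 and 40.0 and 42.6 with siRNA 7, against 11.7 and 17.0 in control cells, rising by 1.07 with siRNA 6 (SE 0.29, adjusted p = 0.0055) and by 1.49 with siRNA 7 (SE 0.29, adjusted p = 7.1e-05). The cell cycle inhibitor CDKN1A was at 549 and 504 with siRNA 6 and 666 and 665 with siRNA 7, against 424 and 471 in control cells, rising by 0.24 and 0.57, and the death receptor FAS rose by 0.30 and 0.32. With DESeq2, and likewise without control replicate 1, 1 p53 target rose with both, GDF15 and CDKN1A being among the calls lost, and 0 fell with DESeq2, without control replicate 2 and without siRNA 6 replicate 1. Of 32 genes of the endoplasmic reticulum, 5 rose with both (15.6%, against 4.68% of all genes), all in translocation, transport or lectin folding: SSR1 at 2854 and 2912 with siRNA 6 and 2969.6 and 2969 with siRNA 7, against 2129.8 and 2177 in control cells (0.42 and 0.46), SEC61A1 (0.36 and 0.40), SEC24D (0.28 and 0.42), CANX (0.15 and 0.22) and SEC61B (0.14 and 0.20), while calreticulin (CALR) fell by 0.23 and 0.23. Without siRNA 6 replicate 1, 3 rose with both.

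Among 31 ATF4 targets, 3 rose with both siRNAs (9.68%, against 4.68% of all genes) and 3 fell (9.68%, against 4.39%). The amino acid transporter chains SLC7A5, at 11164 and 11969.5 with siRNA 6 and 13014 and 12609 with siRNA 7, against 15254 and 14596 in control cells, and SLC3A2 fell by 0.37 and 0.22 and by 0.25 and 0.16, and the glutamine transporter SLC1A5 rose by 0.23 and 0.28. Of 40 lysosome and autophagy genes 4 rose (10.0%, against 4.68% of all genes) and 2 fell (5.00%, against 4.39%), WIPI1 rising by 0.47 and 0.66 and the receptor SQSTM1 by 0.25 and 0.16. The count that rose was 4 in all 18 alternatives, whereas the count that fell was 0 with DESeq2, without control replicate 2 and without siRNA 6 replicate 1, and 1 with quantile normalization, without control replicate 1 and without siRNA 6 replicate 2. In the NRF2 list 2 of 24 fell (8.33%, against 4.39% of all genes), and 1 with DESeq2 and without either control replicate or siRNA 7 replicate 1. Of 55 oxidative phosphorylation genes 1 fell with both siRNAs (1.82%, against 4.39% of all genes), NDUFS3, a core subunit of respiratory complex I. It was at 507 and 552 with siRNA 6 and 259 and 216 with siRNA 7, against 708 and 684 in control cells, with the lower level for siRNA 7. NDUFS3 overlaps PTPMT1 on the same strand, where their reads cannot be told apart. It also overlaps CELF1 and KBTBD4 on the opposite strand, and as the strand counted is not given, those reads may not be separated either.

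In further lists 0 to 2 members were called with both siRNAs. Of 46 nuclear speckle and splicing factor genes, 1 rose with both siRNAs (2.17%, against 4.68% of all genes), the transcription-associated factor BCLAF1 by 0.15 and 0.15, and 0 fell, with a median mean change of 0.00. With limma 0 of 17 cytosolic heat shock genes were called with both siRNAs, with edgeR and DESeq2 0, and at an unadjusted p below 0.05 1 was higher. For every other count of 0 given above for a list in 1 direction, edgeR and DESeq2 also gave 0, and so did an unadjusted p below 0.05, except for 1 speckle gene that was lower. Beside 4.39% of all genes, the interferon list had 1 of 27 lower (3.70%), the decay list 1 of 28 lower (3.57%), YAP and TEAD targets 1 of 21 lower (4.76%) and the clock list 1 of 15 lower (6.67%). The decay call was lost with DESeq2 and without any 1 control or siRNA 6 library, and the interferon call with DESeq2 and without siRNA 6 replicate 2. Beside 4.68% of all genes, fatty acid synthesis had 1 of 13 higher (7.69%, ELOVL6 by 0.25 and 0.55) and sterol efflux 1 of 9 higher (11.1%, NR1H2 by 0.29 and 0.25). Of 19 small nucleolar RNA host genes SNHG7 and SNHG6 fell (10.5%, against 4.39% of all genes), by 0.47 and 0.24 and by 0.36 and 0.22. SNHG7 lost its call without control replicate 1 and SNHG6 without siRNA 7 replicate 1.

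**Figure D5:**
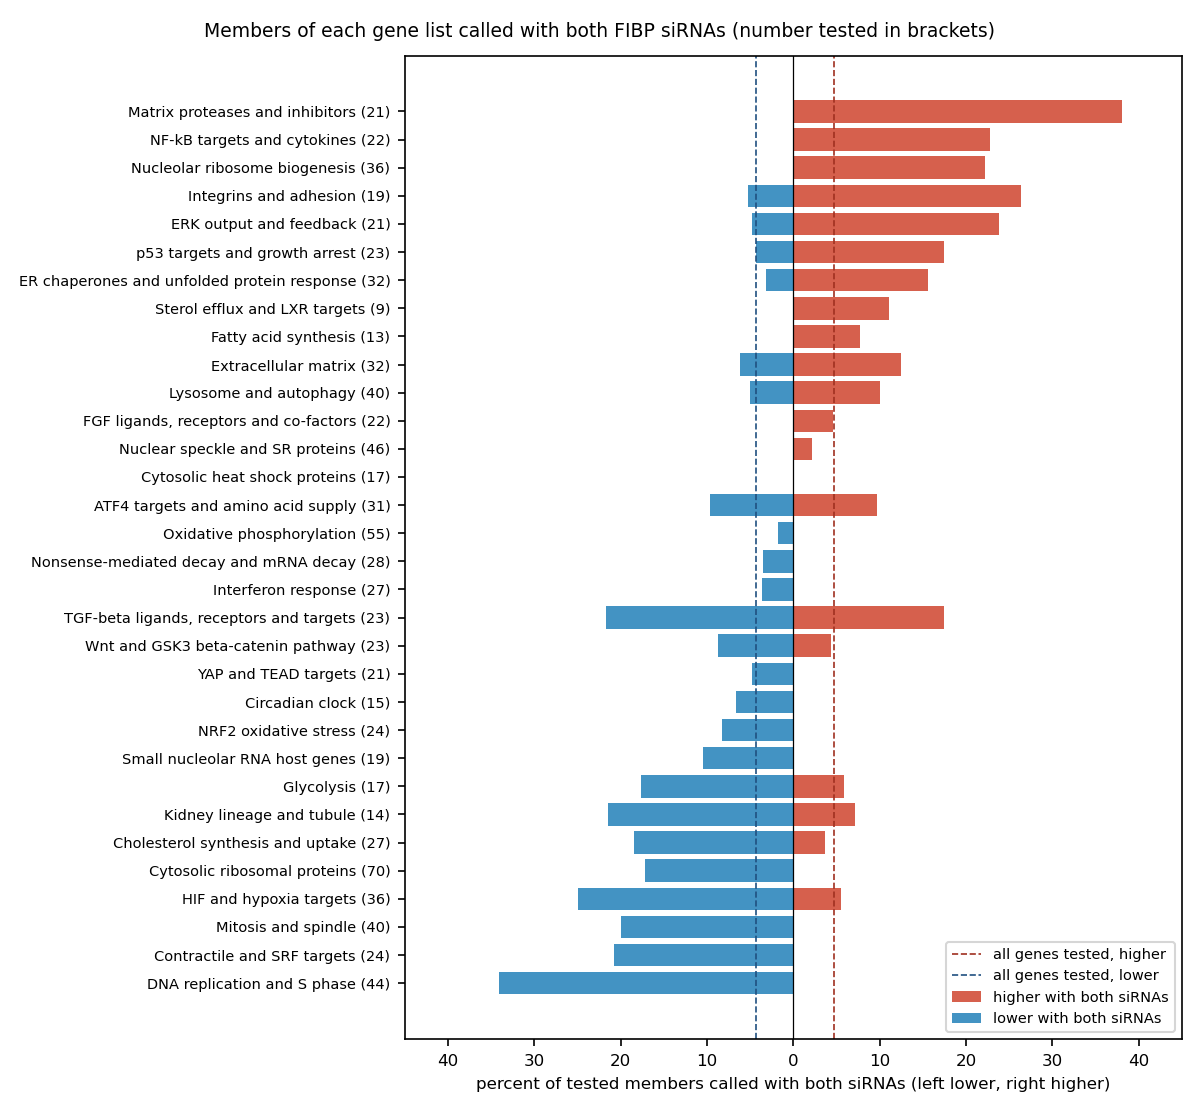
Share of each list's tested members called higher (red, right) or lower (blue, left) with both FIBP siRNAs, as a percent on the horizontal axis, with dashed lines at the shares over all genes tested (4.68% higher and 4.39% lower). Proteases reach 38.1% higher and replication genes 34.1% lower, while speckle, heat shock and respiratory genes stay at or inside the dashed lines.

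The siRNAs differed from each other at 4197 genes (35.7%; 2110 higher and 2087 lower with siRNA 7 than with siRNA 6), more than either called against control. MEGF6, an EGF-repeat protein, was at 581 and 562 with siRNA 6 and 71.7 and 88.3 with siRNA 7, against 778 and 745 in control cells, and differed by -2.83 (SE 0.08, adjusted p = 1.9e-29). The vasoconstrictor peptide gene EDN2 was at 264 and 287 with siRNA 6 and 42.7 and 18.3 with siRNA 7, against 131 and 163 in control cells, above control with siRNA 6 and below it with siRNA 7 (difference -3.25, adjusted p = 1.2e-18). The monocyte chemoattractant CCL2 showed the same pattern, at 275 and 291 with siRNA 6 and 81.3 and 49.7 with siRNA 7, against 102 and 181 in control cells (difference -2.13, adjusted p = 6.2e-13). The acyltransferase GPAT3 went the other way, at 129 and 127 with siRNA 6 and 399.6 and 549 with siRNA 7, against 337 and 257 in control cells (difference 1.87, adjusted p = 7.2e-18). Of the 551 genes that rose with both siRNAs 133 also differed between them, and of the 517 that fell 190 did, together 2.74% of genes tested. Residual FIBP differed between the siRNAs as well, and its part in these differences was not tested.

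FIBP knockdown was also set directly against TMEM259 knockdown, 4 libraries each, a contrast that leaves the control libraries out but uses the same 4 FIBP siRNA libraries. It called 4366 genes (37.1%; 2152 higher and 2214 lower with FIBP siRNAs). Of the 551 genes higher with both FIBP siRNAs 382 (69.3%; 3.25% of genes tested) were also above TMEM259 knockdown and 6 below it. Of the 517 lower 397 (76.8%; 3.37% of genes tested) were also below and 9 above. Because the genes were taken for their values in those FIBP siRNA libraries, part of this overlap follows from the choice, and the counts are a description. DUSP5 averaged 243 ± 76.5 (SD, n = 4) with FIBP siRNAs, and differed from TMEM259 knockdown by 1.22 (adjusted p = 1.9e-14). G0S2 differed by 0.85 (adjusted p = 2.4e-17), LMO4 by -0.77 (adjusted p = 2.3e-19), KIF23 by -0.60 (adjusted p = 1.2e-18) and TSPAN2 by -0.84 (adjusted p = 5.4e-16).

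Of the 28 genes with the largest shared changes 25 differed from TMEM259 knockdown, against 37.1% of all genes. They were chosen for their values in the same FIBP siRNA libraries, so this count too is a description. TECPR2 (-0.08, SE 0.10), ANKRD36C (-0.11, SE 0.15) and HCN3 (-0.26, SE 0.14) did not pass the test. DESI2 had a fold change over control of 0.90 and 0.87 with FIBP siRNAs 6 and 7 and of 0.59 and 0.75 with TMEM259 siRNAs 5 and 6, against the same control libraries, and SMIM15 had 0.76 and 0.74 beside 0.45 and 0.60. Also called higher with both TMEM259 siRNAs were INPP5A (0.67 and 0.49), ADAMTS1 (0.47 and 0.37), NAA50 (0.41 and 0.23) and MRPL50 (0.21 and 0.32). DUSP5, SOCS3 and ST3GAL1 were called with neither TMEM259 siRNA. Of replication genes 18 of 44 stood lower than with TMEM259 siRNAs and 3 higher, and of mitosis genes 26 of 40 lower and 2 higher, against 18.8% lower and 18.3% higher over all genes. Nucleolar genes stood higher for 22 of 36 and lower for 1, and ribosomal protein genes higher for 9 of 70 and lower for 6. The largest differences in the contrast were those of EPPK1 (-1.78), SLC16A12 (-1.70), MEGF6 (-1.65), EFHB (-1.64) and SAMD11 (-1.19), lower with FIBP siRNAs, and SCG5 (1.32), DUSP5, HMGA1 (1.18), TMEM158 (1.12) and MMP1 (1.08), higher. Apart from DUSP5 and SAMD11, MEGF6 is the member of this set called with both FIBP siRNAs against control.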

How the data were processed

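Poly(A) RNA of 786-O cells was sequenced with directional paired ends of 42 bases, per the labels' protocols. The submitters' processing notes name hg19, STAR, Picard, HTSeq and DESeq2, without roles, and the annotation and the strand counted are not given in the sources used here. The authors deposited a normalized signal per gene symbol, that is, gene counts divided by 1 size factor per library. All values were whole multiples of 1 step per library (tolerance of 0.0001 of a read), from which whole reads were recovered for edgeR and DESeq2 (100% of values whole). The 3 entries for reads without a gene (ambiguous, no feature and not uniquely aligned, at 1.91% to 1.98%, 7.96% to 8.57% and 29.6% to 30.7% of gene reads in the 6 libraries) stayed out of totals and tests.

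Genes with a table mean of at least 10 were tested as log2(value + 1) with limma 3.58.1 (lmFit, contrasts.fit, eBayes with trend; R 4.3.3), in 1 model with a mean for each of 5 groups over all 10 libraries of the table, giving 5 residual and 38.4 prior degrees of freedom. Fold changes are on that scale, which understates changes of low genes. A gene was called at a two-sided Benjamini-Hochberg adjusted p below 0.05 over all 11768 genes, and with both siRNAs when each called it with the same sign. The 2 libraries of each of the 5 groups differed beyond counting noise (chi-square over degrees of freedom 1.53 to 1.87). On simulated data 200 genes among 11768 were changed, all with a simulated control mean of at least 50. Calls with both siRNAs recovered 49.3% of 1.25-fold changes, 92.5% of 1.5-fold and 100% of 2-fold changes, with 0 false calls. The mean of both siRNAs gave 13 false calls. Recovery of changes in lower genes was not measured.

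The members, gene lists and tests were chosen with earlier results of these data known. Named genes were FIBP, the 14 higher and 14 lower genes ranked by whichever siRNA changed them less (called with both, all FIBP siRNA libraries beyond both control libraries, table mean of at least 50), the list members called with both siRNAs with the largest mean change (4 per list, or 6 for longer lists), any FGF or cholesterol list member, the 5 genes per direction with the largest change between siRNAs and between targets, and the 4 genes nearest to FIBP. Other list members given by name, such as ITGB1, ETV5 or ANGPTL4, were chosen after their values were seen. Of 199 genes that the rule admits, 39 overlap another gene of the table in GENCODE, where reads could be split between the pair. Alternatives were DESeq2 1.42.0, edgeR 4.0.16 (TMM), quantile normalization, a pseudocount of 5, no filter or a minimum table mean of 50, only the libraries compared, a replicate block, and leaving out each of the 10 libraries. Promoters came from RefSeq GRCh38.p14. The other 2 tables of the series were not used here. Some genes that the naming rule admits are not reported here; they stay in the counts.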

Additional observations from a re-analysis of the deposited data

Results flagged for a closer look

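The 10 genes with the largest differences between siRNA 7 and siRNA 6 against the same FIBP target are given here because a test of the difference itself passed in limma, adjusted over all genes. Lower with siRNA 7 than with siRNA 6, on the log2 scale, were EDN2 (-3.25, SE 0.19), MEGF6 (-2.83, SE 0.08), EFHB (-2.62, SE 0.22), CCL2 (-2.13, SE 0.19) and CYP1B1 (-1.90, SE 0.08). Higher with siRNA 7 were SCG5 (1.71, SE 0.09), DOCK4 (1.78, SE 0.20), GPAT3 (1.87, SE 0.11), GPRC5A (2.04, SE 0.17) and SNORA104 (2.09, SE 0.10). CYP1B1, a monooxygenase, stood at 1279.6 and 1247 with siRNA 6 and 384 and 296 with siRNA 7, against 1239 and 1355 in control cells, so that siRNA 7 alone lay apart from control. SNORA104, a small nucleolar RNA, stood at 72.6 and 81.4 with siRNA 6 and 335 and 327 with siRNA 7, against 306 and 342 in control cells, and here siRNA 6 alone lay apart. The receptor GPRC5A stood at 42.0 and 58.8 with siRNA 6 and 205 and 211 with siRNA 7, against 59.3 and 70.9 in control cells, and DOCK4, an activator of Rac, at 60.2 and 46.4 with siRNA 6 and 164 and 206 with siRNA 7, against 67.8 and 62.4 in control cells.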

How the results depend on the processing

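The FIBP decrease kept its sign in all 18 alternatives, and no called change of a named gene was reversed in any alternative that tested the gene (a minimum table mean of 50 left 193 of 202 such results). The log2 change of FIBP for the mean of both siRNAs lay between -2.95 and -2.77 when single libraries were left out. Counts of calls moved most with DESeq2, which called 1541 genes with siRNA 6, 2519 with siRNA 7, 1939 with their mean, 596 with both, and 2621 between the siRNAs. Leaving out single libraries gave 1669 to 2791 genes for siRNA 6, 2940 to 4068 for siRNA 7, 1950 to 3218 for the mean, 677 to 1072 with both siRNAs, 3115 to 4179 between the siRNAs and 3734 to 4263 against TMEM259. The cause of these shifts was not tested, apart from the fewer libraries. A lone library left in a group was assumed to vary like the other groups. The other settings kept each of these counts within 1.5 times. Of 74 list counts, DESeq2 moved 22 beyond that, quantile normalization 5, the replicate block 3 and edgeR 1. Leaving out single libraries moved 20 (control replicate 1), 18 (control replicate 2), 17 (siRNA 7 replicate 1), 16 (siRNA 6 replicate 1), 10 (siRNA 6 replicate 2) and 6 (siRNA 7 replicate 2). No scaling moved the share of higher calls by 10 percentage points, but quantile normalization turned the small majority from lower to higher for siRNA 6 (1299 higher, 1274 lower), siRNA 7 (1977, 1887), their mean (1561, 1543) and FIBP against TMEM259 (2227, 2124), and a minimum table mean of 50 did so for siRNA 7 (1932, 1920) and FIBP against TMEM259 (2137, 2092). Replicate numbers did not pair the libraries: same-numbered libraries deviated from their group means with correlations of -0.04 to 0.05. With the replicate block, 3089 genes were called with the mean and 1003 with both siRNAs. Depth limits low genes such as FGF1 and CTSW, and with 2 control libraries each weighs on every contrast.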

Other observations

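A pair of further gene groups was drawn up after the values had been seen, so their counts are descriptions only. Of 45 genes of glycosaminoglycan synthesis and proteoglycan core proteins 37 were tested, and 9 rose with both siRNAs while 0 fell, beside 4.68% and 4.39% of all genes, with a median mean change of 0.10. They were GLCE, the epimerase of heparan sulfate, the chondroitin sulfate enzymes CSGALNACT2, CHPF, CHPF2, CHST11, CHST15 and DSE, the UDP-xylose synthase UXS1, and GPC1. GLCE was at 224 and 231 with siRNA 6 and 229 and 229 with siRNA 7, against 160.0 and 157 in control cells, with fold changes of 0.52 and 0.53 and no overlap. CSGALNACT2 was at 582 and 572 with siRNA 6 and 557 and 519 with siRNA 7, against 368 and 389 in control cells, with fold changes of 0.61 and 0.51. With TMEM259 siRNAs 5 and 6 CSGALNACT2 had 0.52 and 0.76, both called, and GLCE 0.60 and 0.19, the first called. In limma's test neither gene differed between FIBP and TMEM259 knockdown (adjusted p = 0.21 and 0.19). The other members that rose stood higher with FIBP siRNAs in that contrast.

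Of 35 cytokine receptors and JAK-STAT genes 33 were tested, and 4 rose with both siRNAs and 1 fell, beside 4.68% and 4.39% of all genes. The median mean change was 0.07. The interleukin 7 receptor IL7R was at 480.3 and 418 with siRNA 6 and 732 and 797 with siRNA 7, against 324 and 294 in control cells, with fold changes of 0.54 and 1.30. The interleukin 1 receptor accessory protein IL1RAP was at 303 and 337 with siRNA 6 and 354 and 338 with siRNA 7, against 206 and 233 in control cells, with fold changes of 0.54 and 0.66. IL6R and SOCS3 were the other members that rose, and the kinase JAK1 fell by 0.21 and 0.28.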
